A study of Homo sapiens with 8 samples.

Results

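The RAS to ERK cascade and MNK2, a kinase that ERK activates, were followed in WM902B, a human primary melanoma line labelled BRAFV600E. The genes were chosen by name, with earlier results of these data known: NRAS, ARAF, BRAF, MAP2K1, MAP2K2, MAPK3 and MKNK2. Of these 7 symbols, 3 (MAP2K1, MAP2K2 and MKNK2) had a row among the 4616 genes that the authors tabulated. NRAS, ARAF, BRAF and MAPK3 had 0 rows each and were not analysed here. Cells at passage 18 carried either a scrambled hairpin (shSCR) or a hairpin against the long non-coding RNA TINCR (shTINCR), and all were treated with cycloheximide (100 µg/ml for 5 min), which stalls elongating ribosomes. For each hairpin there were 2 libraries of ribosome-protected footprints and 2 of RNA, described by the labels as biological replicates. The RNA is labelled as polyA RNA and titled as total RNA. Both groups share the BRAF mutation, the cell line and the drug, and the labels name the hairpin only as shTINCR. The table compared shTINCR with shSCR gene by gene, as translational efficiency (TE), the ratio of footprints to mRNA of a gene.

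RAS proteins are small GTPases that pass signals from receptors to the RAF kinases. RAF phosphorylates MEK1 and MEK2 (MAP2K1 and MAP2K2), and these phosphorylate the ERK kinases, among them ERK1 (MAPK3). In melanoma, mutant BRAF commonly drives the cascade without RAS. ERK activates MNK1 and MNK2 (MKNK1 and MKNK2), which bind the scaffold eIF4G and phosphorylate the cap-binding protein eIF4E, so that the cascade reaches the translation machinery itself. MNK2 is known for a high basal activity.

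The first bases of an mRNA lie next to the cap to which eIF4E binds, so the annotated start of each measured member is shown. The windows come from RefSeq, build GRCh38.p14, with the 15 bases before the start in lower case and the first 15 transcribed bases in capitals. They lie at chr19:2051230-2051259 on the minus strand for MKNK2, chr15:66386897-66386926 on the plus strand for MAP2K1 and chr19:4124108-4124137 on the minus strand for MAP2K2.
MKNK2: cggcggcgacgcgccCGGCTCCTCTCAGCG
MAP2K1: cctcccccggcctccAGTCCCTCCCAGGGC
MAP2K2: ctcccctccccctgcCTCTCGGACTCGGGC
MAP2K2 began with C followed by 4 pyrimidines (C or T), the form of a terminal oligopyrimidine start, which marks many mRNAs controlled by mTORC1. The MKNK2 and MAP2K1 starts did not have this form. It was found on the transcribed strand at the start of 4.07% of all 35116 RefSeq windows and of 6.75% of the 3735 genes of the table that had a window, the most upstream one being used for each gene. A second RefSeq start of MAP2K1 and of MAP2K2 lay further downstream, and neither had this form. Which start WM902B cells use was not examined.

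TE of the MNK2 mRNA rose when TINCR was targeted. In the authors' deposited table the log2 TE of MKNK2 was -1.47 in shSCR cells and -0.57 in shTINCR cells. On the linear scale this was a TE of 0.362 against 0.673, a rise of 1.86-fold (log2 change 0.90, adjusted p = 0.000243, the authors' deposited table). It was the 7th highest change of the 4616 genes and the 106th smallest p-value. At the deposited adjusted p below 0.05, 16.4% of all genes were called, with 8.23% up and 8.17% down, so 1 called member of 3 measured is a count too small to set against that share. MKNK2 was also the 1 member called with each version of the authors' estimate alone (17.9% and 20.3% of all genes called), with Benjamini-Yekutieli (5.85%) or Holm (2.60%) adjustment, and at adjusted p below 0.01 (7.82%) or 0.1 (22.0%). Of these settings only Benjamini-Yekutieli and Holm adjustment could have removed MKNK2. The final p-value is the larger of both versions, and 0.000243 already lies below 0.01.

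The table gives no value per library and no error. An error can only be read back from the p-value, by taking it as that of a normal statistic, and an error made this way is called implied here. For MKNK2 the implied standard error was 0.197 on the log2 scale, which gives an implied 95% interval of the log2 change from 0.51 to 1.28 (1.42-fold to 2.43-fold). This error was larger than that of 98.5% of the genes, whose median was 0.130. The authors' 2 versions of the estimate gave nearly the same log2 change, 0.89 and 0.90, and p-values of 1.95e-08 and 5.57e-06, of which the larger is the final one in the authors' deposited table. The implied standard error of the first version was 0.159. The size of the rise therefore varied little between versions, while its precision did. Both versions rest on the same libraries, so their closeness does not measure how the rise varies between replicates. How much of the rise came from footprints and how much from mRNA is not given by the table, and neither is the share of the spliced forms MNK2a and MNK2b.

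Neither MEK mRNA passed the threshold. In the authors' deposited table MAP2K1, which encodes MEK1, had a log2 TE of -0.90 in shSCR and -0.87 in shTINCR cells, a log2 change of 0.03 (adjusted p = 0.917). Its implied 95% interval ran from -0.27 to 0.33, or 0.831-fold to 1.26-fold. MAP2K2, which encodes MEK2, had a log2 TE of 0.09 and -0.04 in the authors' deposited table, a log2 change of -0.12 (adjusted p = 0.473). Its implied interval ran from -0.34 to 0.09, or 0.791-fold to 1.07-fold. Changes up to these bounds are therefore not excluded for either MEK. The implied intervals of both MEK genes lay wholly below that of MKNK2, and a test of the difference between genes could not be run without values per library.

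**Figure D1:**
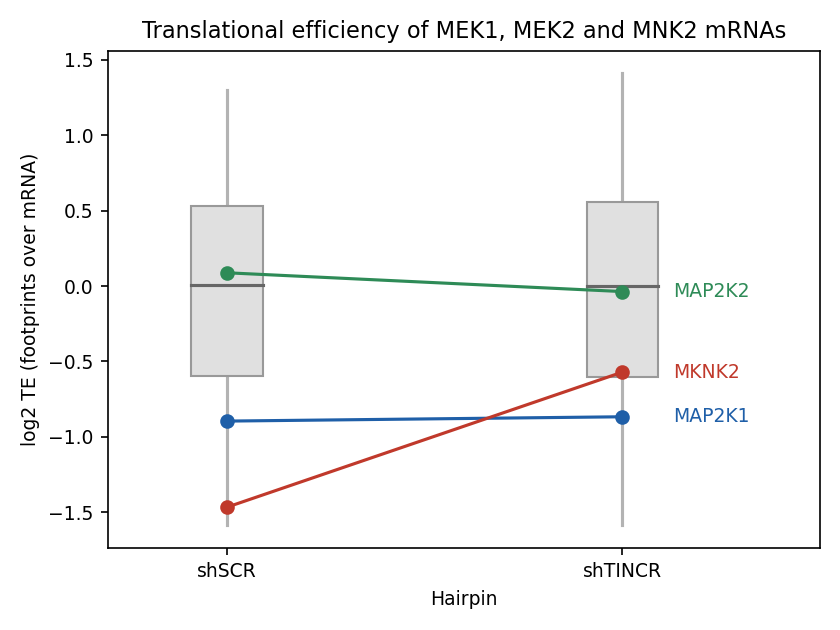
The log2 TE (vertical axis) of MAP2K1, MAP2K2 and MKNK2 is joined between shSCR and shTINCR cells; grey boxes span the 25th to 75th percentile of all 4616 genes with the median as a line, and grey bars the 5th to 95th percentile. MKNK2 climbed from -1.47 to -0.57 and crossed MAP2K1, which stayed near -0.90, and no error per condition is given by the table.

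The order of the 3 mRNAs by TE changed between the conditions. In shSCR cells MAP2K2 stood highest, above 53.4% of all genes, followed by MAP2K1, above 16.3%, and MKNK2, above 6.13%. In shTINCR cells MAP2K2 stood above 48.2% of all genes, MKNK2 above 26.2% and MAP2K1 above 17.0%. The TE of MAP2K2 was 1.98 times that of MAP2K1 in shSCR and 1.78 times in shTINCR cells. Against MKNK2 the ratio of MAP2K2 narrowed from 2.94 to 1.45. MAP2K1 had 1.49 times the TE of MKNK2 in shSCR cells, and MKNK2 had 1.23 times that of MAP2K1 in shTINCR cells. These levels carry no error per condition in the authors' deposited table, so it cannot be said which neighbours in the order differ beyond their spread. A TE is a ratio within a gene, and the sources used here do not say over which region its footprints and mRNA reads were counted. A long untranslated region counted only for mRNA would lower it, so levels are less safely compared between genes than changes.

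By TE in shSCR cells MKNK2 and MAP2K1 started in the lowest 25% of genes, and MAP2K2 between the 50th and 75th percentile. In the lowest 25%, 10.7% of 1154 genes rose and 5.46% fell, and between the 50th and 75th percentile 6.85% rose and 11.2% fell, at the deposited adjusted p below 0.05. The change is taken from the same shSCR value that sets these groups. Error in that value alone can raise low groups and lower higher ones, and its part was not tested. In the lowest 25%, 5 genes had a higher log2 change than MKNK2. The genes nearest to MKNK2 in the plane of both log2 TE values were PLEKHO2, at a distance of 0.227, and CEP170B, at 0.228. The genes nearest to MAP2K1 were SLC39A6 and HSBP1, at 0.0134 and 0.0255. Those nearest to MAP2K2 were PSMA4 and RIPK1, at 0.0130 and 0.0224. The nearest neighbours of MKNK2 thus lay further away than those of either MEK gene. These distances rest on 2 conditions.

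**Figure D2:**
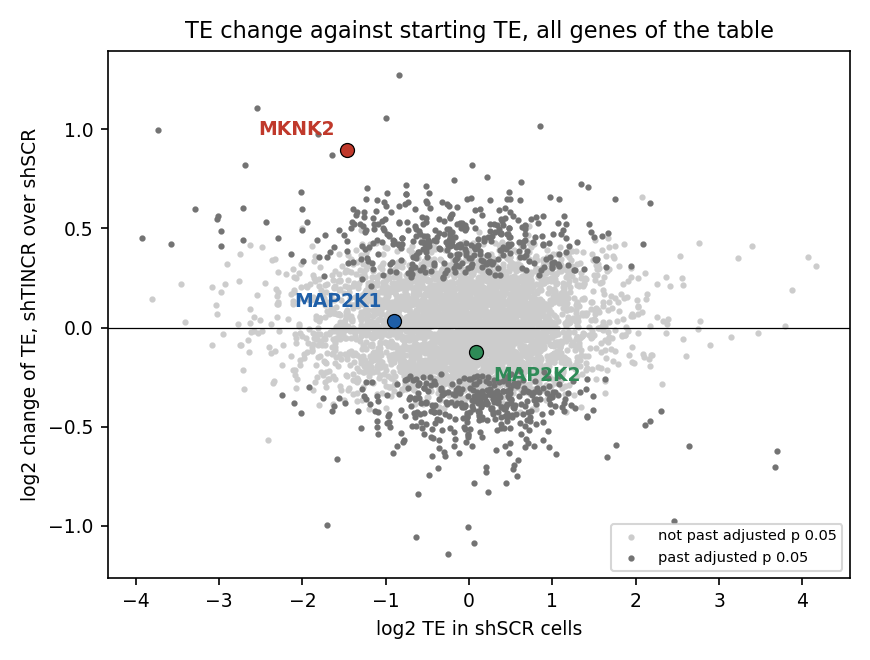
Each point is a gene of the table, with its log2 TE in shSCR cells on the horizontal axis and its log2 change of TE, shTINCR over shSCR, on the vertical axis; dark points passed an adjusted p of 0.05. MKNK2 lies at -1.47 and 0.90, near the upper edge of the points, whereas MAP2K1 (0.03) and MAP2K2 (-0.12) lie inside the bulk.

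The starts of these mRNAs were compared with those of the other genes. The first 50 bases of the most upstream RefSeq transcript held 78% G and C for MKNK2, 76% for MAP2K1 and 72% for MAP2K2, against a median of 66% over the 3735 genes with a window. MKNK2 exceeded 86.3% of those genes, MAP2K1 80.6% and MAP2K2 66.2%. Across genes, which share libraries and are not independent replicates, the G and C content of these bases and the log2 change of TE had a Pearson r of 0.15. The part of G and C content in the change of MKNK2 was not tested. The 252 genes with an oligopyrimidine start of the form of MAP2K2 had a median log2 change of -0.12, against 0.02 for the other genes with a window. MAP2K2 itself stood at -0.12 and did not pass the threshold, and the part of its start in this value was not tested. RefSeq names 1 pseudogene each for MAP2K1 and MKNK2 and 0 for MAP2K2 under the symbol of the gene with P and a number. Reads can be shared with pseudogenes, and their part in these values was not tested. MAP2K1 overlaps SNAPC5, a gene on the opposite strand, and the pseudogenes ATP5MFP6 and RPL35AP32 of other genes. The sources used here do not say whether the counting used strand.

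Other genes of the pathway were described from lists that, like the members, were drawn up with earlier results of these data known, so their counts are not independent evidence. Counts are to be read against all genes, of which 16.4% were called, 8.23% up and 8.17% down. MNK2 belongs to a group of kinases that ERK or its relatives activate. Of the 5 others of this group with a row, 2 rose and 0 fell, with a median log2 change of 0.17 against 0.02 over all genes (with MKNK2, 3 of 6 and 0.31). Leaving MKNK2 out was chosen after seeing the data, as were the counts per list under other adjustments. With Benjamini-Yekutieli or Holm adjustment 0 of these 5 passed, against 5.85% and 2.60% of all genes. Next to MKNK2, RPS6KA1, which encodes the ribosomal S6 kinase RSK1, rose from a log2 TE of -0.51 to -0.05, per the authors' deposited table (1.38-fold, adjusted p = 0.0167). RPS6KA4, which encodes the chromatin kinase MSK2, rose from -0.49 to -0.05, per the authors' deposited table (1.36-fold, adjusted p = 0.0125). A measured paralog of each is given here, and neither passed. RPS6KA2 and RPS6KA6, other RSK genes of the list, had no row. RPS6KA3, which encodes RSK2 and was named after its value was seen, had a log2 change of 0.04 (adjusted p = 0.869, per the authors' deposited table). RPS6KA5, which encodes MSK1, had one of -0.19, per the authors' deposited table (adjusted p = 0.410). MAPKAPK2, a kinase activated mainly by p38, had one of 0.17 (adjusted p = 0.523, per the authors' deposited table). The implied interval of RPS6KA1 ran from 0.17 to 0.75 and that of RPS6KA3 from -0.21 to 0.29, so these paralogs overlapped. Those of RPS6KA4 (0.18 to 0.71) and RPS6KA5 (-0.47 to 0.10) did not, and neither difference was tested. With Benjamini-Yekutieli or Holm adjustment RPS6KA1 and RPS6KA4 no longer passed.

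**Figure D3:**
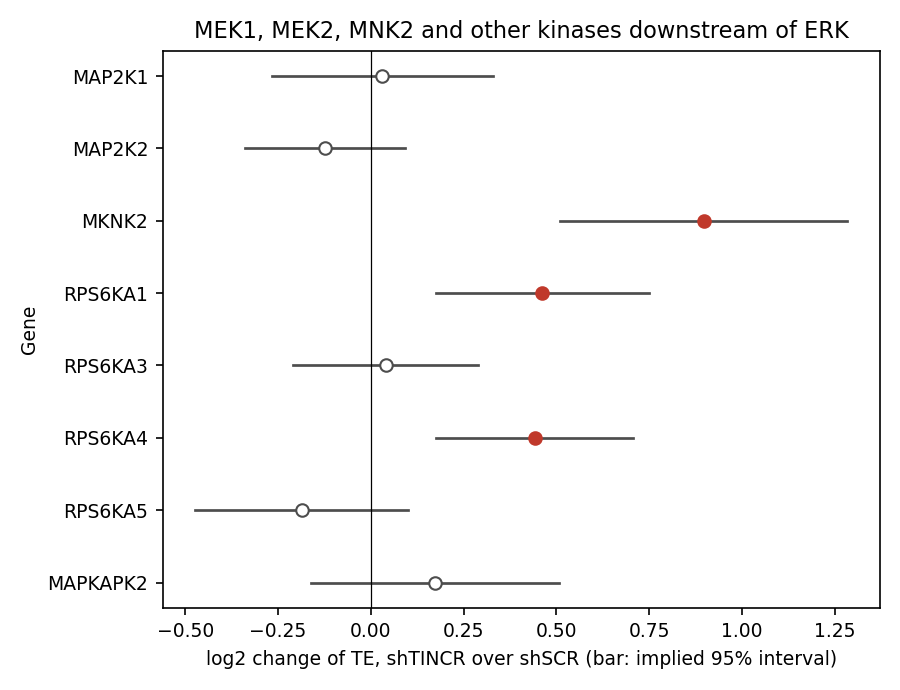
Points give the log2 change of TE, shTINCR over shSCR (horizontal axis), of the 3 members and other kinases downstream of ERK (vertical axis), filled where the deposited adjusted p was below 0.05; bars are 95% intervals implied by the p-value. MKNK2 (0.90), RPS6KA1 (0.46) and RPS6KA4 (0.44) are filled and lie right of 0, and the intervals of MAP2K1 and MAP2K2 cross it.

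MNK2 acts on the cap-binding complex and on some other RNA-binding proteins. EIF4E, the substrate of MNK2, had 0 rows and was not analysed here. Of 11 measured genes of a list that joins the complex with such other substrates and partners, 1 rose and 3 fell (36.4% called, against 16.4% of all genes), with a median log2 change of -0.10. With Holm adjustment, which 2.60% of all genes passed, 3 passed, without EIF4EBP1. Of the 3 that fell, EIF4B belongs to the complex, and HNRNPA1 and NONO do not. EIF4EBP1, the inhibitor that competes with eIF4G for eIF4E, rose from a log2 TE of 0.34 to 0.86, per the authors' deposited table (1.43-fold, adjusted p = 0.00335). EIF4B, a cofactor of the helicase eIF4A, fell from -1.70 to -2.69 (0.501-fold, adjusted p = 5.29e-30, the authors' deposited table), and RefSeq names 9 pseudogenes for it. HNRNPA1, an RNA-binding protein that MNK also phosphorylates, fell from 3.67 to 2.97 in the authors' deposited table, and RefSeq names 75 pseudogenes for it. Named pseudogenes also exist for EIF4EBP1 (2), NONO (2) and SFPQ (1). Reads can be shared with pseudogenes, and the part of such sharing in the values of all these genes was not tested. NONO, the partner of the MNK substrate SFPQ, fell from 0.38 to -0.13, and SFPQ had a log2 change of -0.14 (adjusted p = 0.299, the authors' deposited table). The helicase EIF4A2 did not pass either, with a log2 change of -0.26 (adjusted p = 0.086, the authors' deposited table). It has 5 named pseudogenes, and 5 small nucleolar RNA genes lie inside it.

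The genes upstream of RAF begin with the receptors. Of 6 receptor tyrosine kinases with a row, 0 passed, against 16.4% of all genes. At an unadjusted p below 0.05, which 29.5% of all genes reached, the count was also 0 (tool: not given in the sources used here). Their log2 changes lay between -0.02 and 0.23, and the smallest p-values belonged to TYRO3 (0.23, adjusted p = 0.319) and the collagen receptor DDR2 (0.21, adjusted p = 0.381, the authors' deposited table). Of 7 adaptors with a row, 1 rose and 0 fell (14.3% called, against 16.4% of all genes). This was IRS2, which couples the insulin and IGF receptors to PI3K and RAS. IRS2 rose from a log2 TE of -0.36 to 0.11, per the authors' deposited table (1.39-fold, adjusted p = 0.00613). Log2 changes were 0.34 for the docking protein GAB2 (adjusted p = 0.109) and 0.24 for the adaptor CRK (adjusted p = 0.280, the authors' deposited table). Of 24 RAS-type GTPases 2 had a row, and 1 of these fell, a count too small to set against the 16.4% of all genes. RAP1B, a close relative of RAS that controls integrin adhesion, fell from -0.98 to -1.42 (0.735-fold, adjusted p = 0.00114, the authors' deposited table), with 3 named pseudogenes and a small nucleolar RNA gene inside it. RALB, which acts downstream of RAS, had a log2 change of -0.11 (adjusted p = 0.660, per the authors' deposited table). Of 5 enzymes of RAS membrane processing 0 passed (16.4% of all genes did) and 1 reached an unadjusted p below 0.05 (29.5% of all genes did). That gene was the methyltransferase ICMT (0.28, adjusted p = 0.138, the authors' deposited table).

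Of 8 brakes on RAS with a row, 1 rose and 0 fell (12.5% called, against 16.4% of all genes). SPRY4, a feedback inhibitor that ERK induces, rose from a log2 TE of -1.45 to -1.12 (1.25-fold, adjusted p = 0.0339, the authors' deposited table). The GTPase-activating protein NF1, with 12 named pseudogenes and a log2 change of -0.18 (adjusted p = 0.363), and LZTR1, an adaptor for RAS degradation (0.30, adjusted p = 0.247), did not pass in the authors' deposited table. Among 21 scaffolds, 14-3-3 proteins and RAF chaperones, 2 rose and 2 fell (19.0% called, against 16.4% of all genes). LAMTOR1, which anchors the complex that recruits the MEK1 scaffold MP1 to lysosomes, rose from 0.30 to 0.82 (1.43-fold, adjusted p = 0.000343, the authors' deposited table). HSP90AB1, one of several listed chaperones that stabilise RAF, fell from 1.12 to 0.72 (0.758-fold, adjusted p = 1.46e-05, the authors' deposited table). The catalytic subunits of protein phosphatase 1, which activates RAF together with SHOC2 and MRAS, did not share a direction. PPP1CA rose 1.20-fold (adjusted p = 0.0402) and PPP1CC fell to 0.740-fold (adjusted p = 0.00105), while PPP1CB stood at 0.838-fold (adjusted p = 0.0559, the authors' deposited table). In RefSeq PPP1CA overlaps RAD9A, LAMTOR1 overlaps LRTOMT and, of the ERK targets given next, ETV4 overlaps DHX8 and MAFF overlaps TMEM184B. Protein-coding genes also overlap RPS6KA5 (DGLUCY), GAB2 (USP35), ICMT (RNF207) and NF1 (OMG, EVI2A and EVI2B). The same holds for TSC2 (PKD1) and RPTOR (LOC124904075), which are given later. The part of such overlaps in these values was not tested.

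Downstream, 2 of 11 ERK phosphatases rose and 0 fell (18.2% called, against 16.4% of all genes). With Benjamini-Yekutieli or Holm adjustment 0 passed, against 5.85% and 2.60% of all genes. PPP2R1A, the scaffold subunit of protein phosphatase 2A, rose 1.21-fold (adjusted p = 0.0323, the authors' deposited table). DUSP4, a nuclear ERK phosphatase, rose 1.20-fold (adjusted p = 0.0496, the authors' deposited table), just inside the threshold. DUSP3 (0.28, adjusted p = 0.148) and the regulatory subunit PPP2R2A (-0.29, adjusted p = 0.219) did not pass in the authors' deposited table. Of 19 transcription targets of ERK, 7 rose and 0 fell (36.8% called, against 16.4% of all genes), with a median log2 change of 0.21. With Benjamini-Yekutieli adjustment 3 of them passed (PHLDA1, IER2 and ETV4, against 5.85% of all genes), and with Holm 2 (PHLDA1 and IER2, against 2.60%). DUSP4 and SPRY4 are among these 7, with ETV4, IER2, PHLDA1 and cyclin D1 (CCND1), and their log2 changes ran from 0.21 to 0.65. The small MAF factor MAFF rose from -1.72 to -1.26 (1.38-fold, adjusted p = 0.00948, the authors' deposited table), and ETV1, an ETS factor, had a log2 change of -0.32 (adjusted p = 0.0721). TE is a ratio to mRNA, so these values do not report on transcription by the pathway.

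The parallel kinase cascades were listed for comparison. Of 10 measured genes of the JNK, p38 and ERK5 cascades 0 passed, against 16.4% of all genes. At an unadjusted p below 0.05 by the authors' unnamed tool the count was also 0, against 29.5% of all genes. The log2 changes of these 10 genes lay between -0.19 and 0.25. MAPK12, of the p38 family, had 0.25 as its log2 change (adjusted p = 0.374) and MAP4K3 had -0.19 (adjusted p = 0.398, the authors' deposited table). Of 9 genes described here of the PI3K, AKT and mTOR list 2 rose and 0 fell (22.2% called, against 16.4% of all genes). With Benjamini-Yekutieli or Holm adjustment 0 passed, against 5.85% and 2.60% of all genes. AKT1 rose from a log2 TE of -3.01 to -2.45 (1.48-fold, adjusted p = 0.0133) and RPTOR, the mTORC1 scaffold, from -0.80 to -0.38 (1.34-fold, adjusted p = 0.0464, the authors' deposited table). Log2 changes were 0.22 for the mTORC1 inhibitor TSC2 (adjusted p = 0.320) and -0.28 for the lipid kinase PIK3C3 (adjusted p = 0.126, the authors' deposited table). Within these lists, MKNK2 had the highest log2 change of the genes described here.

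**Figure D4:**
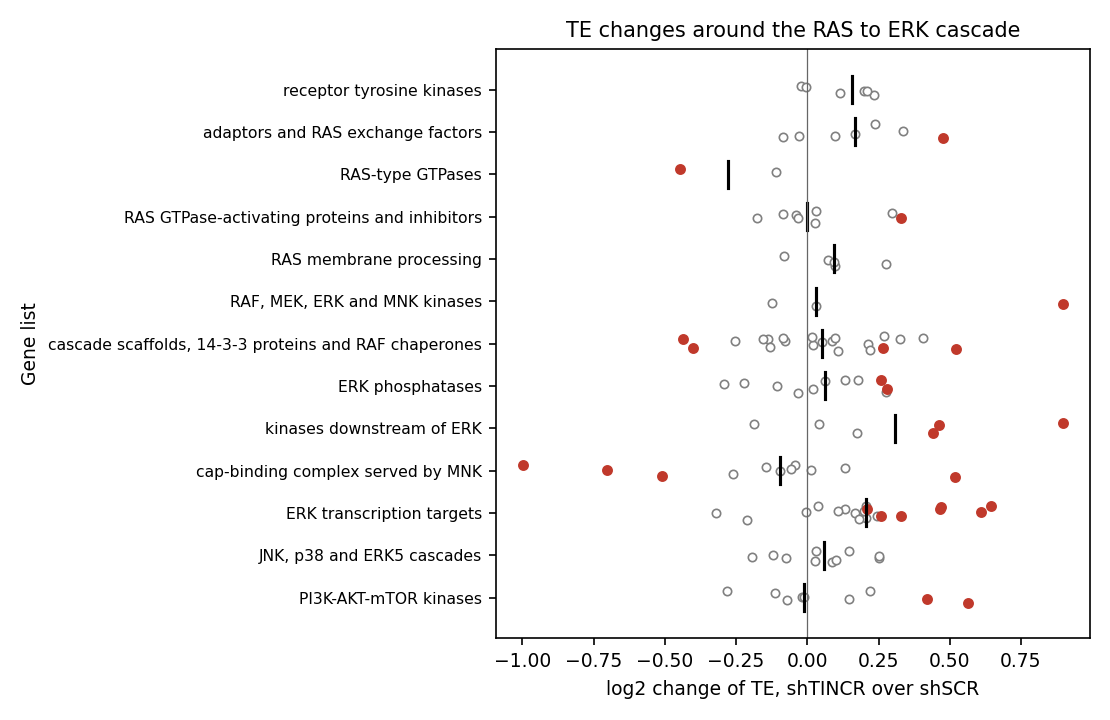
Each point is a measured gene of 1 of 13 lists (vertical axis), at its log2 change of TE, shTINCR over shSCR (horizontal axis); filled points passed a deposited adjusted p of 0.05, and black lines are list medians, with a random vertical offset for clarity. A gene on more than 1 list, such as MKNK2, DUSP4 or SPRY4, has a point in each. Filled points lie on both sides of 0 among scaffolds and the cap-binding complex, and only left of 0 among RAS-type GTPases. In every other list with filled points they lie only right of 0, as among kinases downstream of ERK (3 of 6) and ERK targets (7 of 19). Of all genes 16.4% were called, 8.23% up and 8.17% down.

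Over all genes the median log2 TE was 0.0078 in shSCR and 0.0019 in shTINCR cells, so a change shared by all mRNAs, the MEK and MNK2 mRNAs included, could not be seen. TINCR had 0 rows, and its silencing could not be checked. Of 13 melanocyte lineage and melanoma markers 11 had a row, against 0 of 6 keratinocyte, 1 of 6 fibroblast, 1 of 5 leukocyte and 1 of 4 endothelial markers.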

How the data were processed

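Ribosome profiling and RNA libraries (8 in all, 2 per group) were made with a commercial mammalian kit, per the labels' protocols. Per the submitters' processing notes, build hg19 and the tools DESeq 1.10.1, HTSeq 0.5.3p9, TopHat2 2.0.8, Bowtie2 2.1.0, CASAVA 1.9 and SAMtools 0.1.18 were used, in roles that the notes leave out here. The sources used here do not name the tool behind the TE columns, the filter on genes or the counted region. The authors deposited log2 TE per condition and log2 changes in 2 versions with a final choice, per the file headers. The authors also deposited p-values per version, a final choice of these and its adjusted form, per the file headers. In all 4616 rows the final choice was the larger p-value of both, and its adjusted form matched Benjamini-Hochberg over the whole table to within 2e-15. No column held a library's values, so the planned count tests were not run, depth is unknown, and the authors' p-values are described in their place.

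Folds, ranks, distances and implied standard errors (log2 change over the normal quantile of its p-value) were computed with Python 3.11.15, pandas 2.3.3, numpy 2.4.6 and scipy 1.17.1, and figures with matplotlib 3.10.9. The adjustments were tested on simulated data. Named genes are the members and, from each of 13 lists, up to 8 genes past the threshold and the 2 next by p-value. Not all of them are printed, and RPS6KA3 was added. Of the listed genes, 2 are not reported here and are left out of the lists' counts. Members and lists were chosen with earlier results of these data known. Alternatives were either version of the estimate, Benjamini-Yekutieli and Holm adjustment, centring on the median, and thresholds of 0.01 and 0.1.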

Additional observations from a re-analysis of the deposited data

How the results depend on the processing

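MKNK2 passed under each alternative that could be run, but only Benjamini-Yekutieli and Holm adjustment could have removed it. The final p-value is the larger of both versions, and centring left the p-values unchanged. The deposited adjusted p of MKNK2 already lay below 0.01. For MKNK2 the adjusted p was 1.66e-06 with the first version of the estimate and 0.000182 with the second. It was 0.00219 with Benjamini-Yekutieli and 0.0251 with Holm adjustment, and the log2 change was 0.88 after centring on the median. MAP2K1 and MAP2K2 kept their direction and did not pass under any of these. The count of called members was 1 in each setting, thresholds of 0.01 and 0.1 included, as was that of the RAF, MEK, ERK and MNK kinases reported here, which are the same 3 genes. Of 22 other named genes past the threshold, 11 were called with Benjamini-Yekutieli and 7 with Holm adjustment, with RPS6KA1, RPS6KA4, IRS2, AKT1, RPTOR, MAFF, SPRY4, DUSP4, CCND1, PPP1CA and PPP2R1A lost under both, and EIF4EBP1, ETV4, PPP1CC and RAP1B under Holm. In the second version PPP1CB, LAMTOR5 and IER3 passed, and in the first ETV1 did. Over all genes the count was 757, against 828 and 935 with the first and second version, 270 with Benjamini-Yekutieli, 120 with Holm, 361 at 0.01 and 1014 at 0.1. No paired analysis was possible because the table holds no value per library. Leaving out a replicate, a filter on low values and other size factors were not run for the same reason, and depth limits cannot be stated.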
